A study of Mus musculus with 8 samples.

Results

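The IL-6 and IL-12 families of cytokines and 2 of their receptor chains were followed in mouse peritoneal macrophages given lipopolysaccharide (LPS, a wall component of Gram-negative bacteria that is sensed by TLR4), the small compound C498, or both. The genes were chosen by name: 8 ligand or subunit genes (Il6, Il12a, Il12b, Il23a, Il27, Ebi3, Lif, Osm) and 2 receptor genes (Il6ra, Il6st), making 10 of the 55801 genes in the deposited table. Each symbol had 1 row. Of the 10, 9 had a mean of at least 1 TPM (transcript abundance per length, scaled to 1 common total per sample) over the samples and entered the test across 12189 genes, and Il23a, with a lower mean, is given by its values.

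The macrophages came from male C57BL/6 mice of 6 to 8 weeks, elicited with thioglycollate and cultured. There were 4 groups of 2 samples. NC received the vehicle DMSO, LPS received 100 ng/ml LPS for 4 h, C498 received 15 µM of the compound, and C498+LPS received 15 µM C498 from 0.5 h before the 4 h of 100 ng/ml LPS. Nothing in the sources says whether samples of a group were separate animals, pools or cultures, so every p-value measures only the spread between these samples, which may be technical. The question put to the comparisons is how far C498 changes the expression of the family with and without LPS.

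As background, the IL-6 family signals through gp130, the product of Il6st, which pairs with ligand-specific chains such as the IL-6 receptor (Il6ra), the LIF receptor and the oncostatin M receptor, and passes the signal to JAK kinases and STAT3. The IL-12 family consists of heterodimers. IL-12 is Il12a (p35) with Il12b (p40), IL-23 is Il23a (p19) with the same Il12b, and IL-27 is Il27 (p28) with Ebi3. Activated macrophages are a known source of IL-6, IL-12, IL-23, IL-27 and oncostatin M, while LIF is made by many cell types.

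The samples were checked for macrophage identity and for other cells. All 8 macrophage markers were present, with Lyz2 at 7831 to 15989 TPM and Cd68 at 2208 to 2913 TPM. Their summed level was 19909 to 20436 TPM in NC, 16589 to 17224 TPM in LPS, 15302 to 15467 TPM in C498 and 10637 to 12423 TPM in C498+LPS. Fibroblast markers (6 genes) summed to 150 to 192 TPM in NC, 176 to 200 TPM in LPS, 633 to 750 TPM in C498 and 618 to 911 TPM in C498+LPS, so they were higher in every sample given C498. The 5 mesothelial markers behaved alike at a lower level, from 4.66 to 5.58 TPM in NC and 5.0 to 5.36 TPM in LPS to 14.8 to 20.9 TPM in C498 and 15.5 to 24.5 TPM in C498+LPS. The 6 dendritic cell markers summed to 47.9 to 63.4 TPM without C498 and 90.6 to 151 TPM with it, a difference carried mostly by Ccr7 (9.82 to 17.2 TPM and 30.7 to 112 TPM), while Itgax overlapped and Xcr1 and Cd209a stood at 0 to 0.55 TPM. Zbtb46 (0.31 to 0.89 TPM and 1.75 to 3.41 TPM) and Flt3 (0.30 to 0.41 TPM and 0.62 to 1.29 TPM) were also higher in every sample given C498, at low levels. The 6 neutrophil markers summed to 82.4 to 135 TPM without C498 and 52.6 to 81.6 TPM with it, mostly as S100a8. B cell, T cell, mast cell and endothelial markers summed to at most 22.5 TPM in any sample. C498+LPS replicate 2 stood apart, with the highest sum of all lists but those of macrophages, where it was lowest, and of neutrophils. It was above its replicate at 13.8 against 4.46 TPM for B cell, 5.25 against 2.40 TPM for T cell, 22.5 against 8.57 TPM for mast cell and 7.16 against 2.80 TPM for endothelial markers. Without it, fewer members were called in C498+LPS vs C498, in C498+LPS vs LPS and in the interaction described below. Leaving out its replicate, or either C498 sample, also left fewer calls in C498+LPS vs C498 and in the interaction. Since TPM is a share of the RNA in bulk samples, fewer cells of a type and less RNA per cell cannot be told apart.

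**Figure D1:**
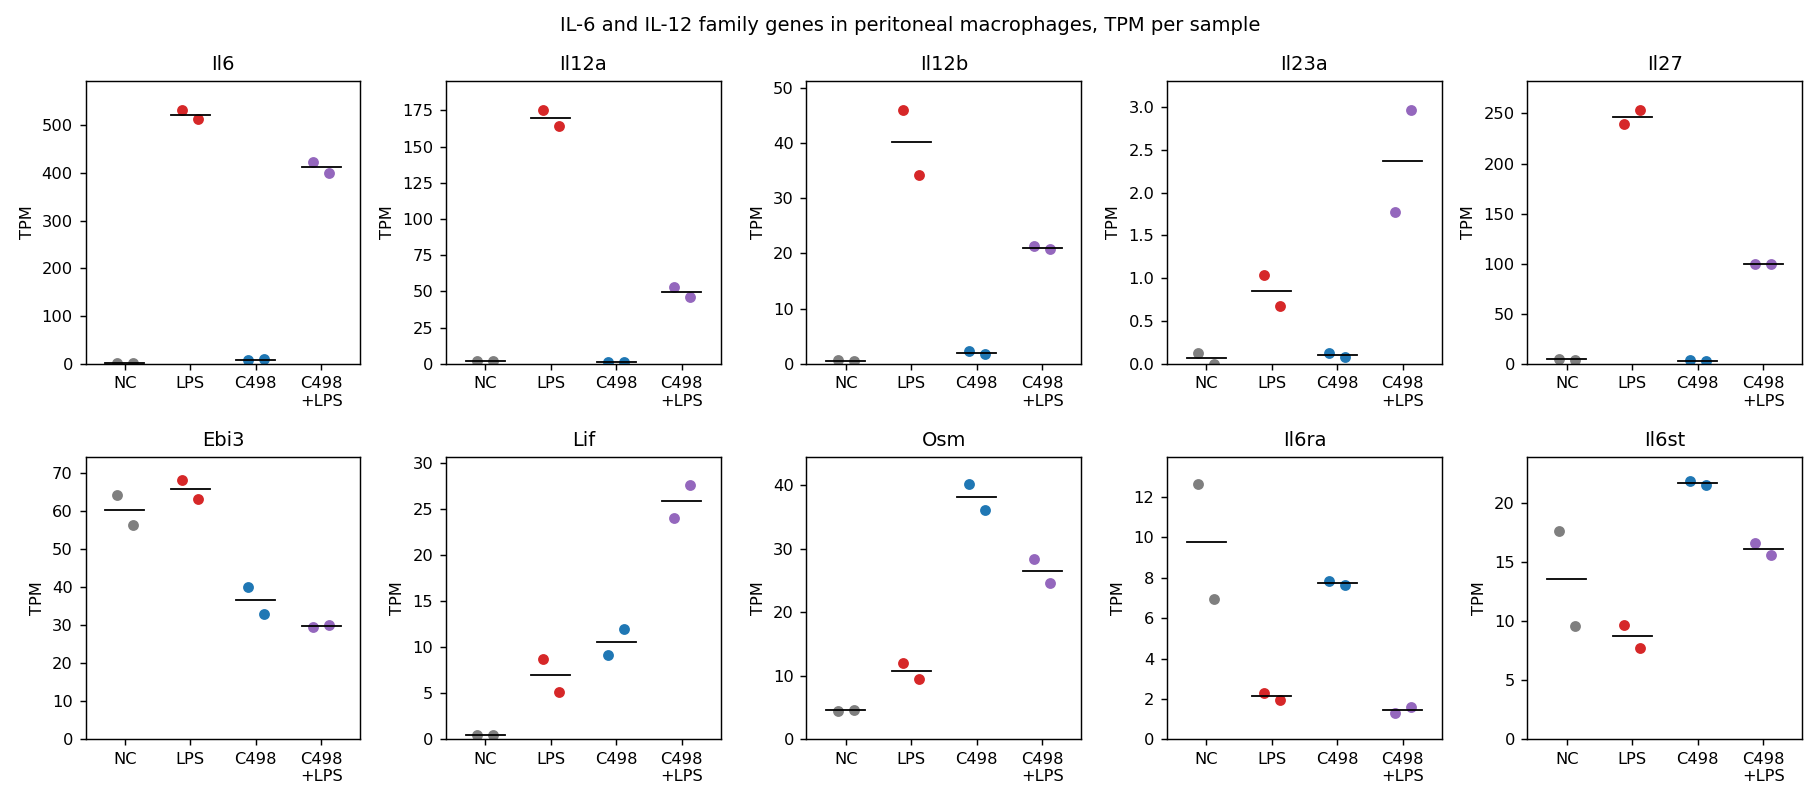
TPM of each of the 10 genes (y axis, linear, starting at 0) in the 8 samples, grouped by treatment on the x axis. Points are samples and black lines are group means. Il6, Il12a, Il12b and Il27 stand high in LPS and lower in C498+LPS, while Lif is highest in C498+LPS and Osm in C498.

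Il6 encodes the family's name-giving cytokine, which drives the acute phase response. It stood at 1.05 and 1.80 TPM in NC, 532 and 512 TPM in LPS, 8.29 and 9.18 TPM in C498, and 424 and 401 TPM in C498+LPS. The 4 groups did not overlap, and the order of their levels was LPS, C498+LPS, C498 and NC. Il6 had the highest level of the 8 ligand genes in both LPS groups.

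The subunits of IL-12 and IL-23 were low at rest. Il12a stood at 1.79 and 1.86 TPM in NC, 176 and 164 TPM in LPS, 1.08 and 0.99 TPM in C498, and 53.3 and 46.2 TPM in C498+LPS. Il12b stood at 0.64 and 0.41 TPM in NC, 46.0 and 34.2 TPM in LPS, 2.29 and 1.70 TPM in C498, and 21.3 and 20.7 TPM in C498+LPS. For both genes LPS held the highest level and C498+LPS the next, and the resting groups stood in opposite order, with C498 below NC for Il12a and above it for Il12b. Il23a was the lowest of the 3 in every sample. It stood at 0.13 and 0 TPM in NC, 1.04 and 0.67 TPM in LPS, 0.13 and 0.08 TPM in C498, and 1.77 and 2.97 TPM in C498+LPS. It was the only one of the 3 subunit genes whose level was higher in both C498+LPS samples than in both LPS samples, and its NC and C498 samples overlapped.

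The IL-27 subunits differed from each other. Il27 stood at 4.64 and 3.91 TPM in NC, 240 and 254 TPM in LPS, 3.72 and 2.64 TPM in C498, and 99.7 and 99.8 TPM in C498+LPS. Ebi3, by contrast, was well expressed without any stimulus, at 64.3 and 56.3 TPM in NC, 68.1 and 63.2 TPM in LPS, 40.0 and 33.0 TPM in C498, and 29.6 and 30.0 TPM in C498+LPS. Its NC and LPS samples overlapped, and both groups given C498 lay below them.

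Lif and Osm, cytokines that act through gp130 and the LIF or oncostatin M receptor, were highest with C498. Lif stood at 0.53 and 0.52 TPM in NC, 8.75 and 5.15 TPM in LPS, 9.20 and 11.98 TPM in C498, and 24.1 and 27.6 TPM in C498+LPS. Osm stood at 4.55 and 4.71 TPM in NC, 11.97 and 9.54 TPM in LPS, 40.2 and 36.2 TPM in C498, and 28.4 and 24.6 TPM in C498+LPS. No group of either gene overlapped another, although for Lif the lowest C498 sample lay only just above the highest LPS sample.

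Of the receptor genes, Il6ra, the ligand-binding IL-6 receptor chain, stood at 12.6 and 6.96 TPM in NC, 2.32 and 1.97 TPM in LPS, 7.82 and 7.64 TPM in C498, and 1.33 and 1.60 TPM in C498+LPS. Il6st, the shared signal-transducing chain gp130, stood at 17.6 and 9.59 TPM in NC, 9.71 and 7.74 TPM in LPS, 21.8 and 21.5 TPM in C498, and 16.6 and 15.6 TPM in C498+LPS. The NC samples of both genes were far apart, with replicate 1 well above replicate 2, so that the C498 samples of Il6ra lay between the NC samples and an LPS sample of Il6st lay between them too.

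LPS raised most of the family. Of the 9 tested members, 6 rose and 1 fell in LPS vs NC by limma on log2(TPM + 1), called at p of at most 0.05 after Benjamini-Hochberg adjustment and at least a 2-fold change, while 5.55% of all 12189 tested genes rose and 6.68% fell. These were 677 and 814 genes, or 853 and 530 with samples centred on their median gene. The median log2 change was 2.34 over the 9 members and -0.17 over all tested genes. Il6 rose 366-fold between the group means, a log2 change of 7.77 ± 0.15 (SE) with an adjusted p of 4.6e-07. Il12a rose 93.1-fold (log2 change 5.92 ± 0.13), Il27 57.7-fold (5.56 ± 0.15) and Il12b 76.4-fold (4.74 ± 0.21), with adjusted p of 8.5e-07, 1.7e-06 and 1.3e-05. Lif and Osm rose less, by log2 changes of 2.34 ± 0.25 (adjusted p = 7.5e-04) and 1.05 ± 0.16 (adjusted p = 0.0029). The Osm call was lost without LPS replicate 1, where the log2 change was 0.90. Il6ra was the member that fell, with a log2 change of -1.73 ± 0.27 (adjusted p = 0.0036). Ebi3 and Il6st did not pass, at 0.12 (95% interval -0.18 to 0.43) and -0.54 (-1.14 to 0.07). For Il23a the fit without a filter, over 24248 genes, gave a log2 change of 0.80 ± 0.21 with an adjusted p of 0.069.

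The promoters of the members were read for motifs of factors that act downstream of LPS or of the family's receptors. RefSeq windows of the 250 bases before the start site, in build GRCm38.p6, were found for 7 of the 10 members (8 windows, as Il12a has 2). Printed here, 5′ to 3′ on the gene's strand, are the windows of Il6, Il12b, Ebi3 and Lif. Il6 (chr5:30012864-30013113, + strand) is the member with the largest rise with LPS, and Il12b (chr11:44399813-44400062, + strand) is an IL-12 subunit. Ebi3 (chr17:55952373-55952622, + strand) is the subunit without an LPS change, and Lif (chr11:4257318-4257567, + strand) is a ligand whose own level was highest in C498+LPS. Capitals mark matches on either strand to the motif of NFκB (the kB motif), AP-1 (TGANTCA), C/EBP (TTGCNNAA), the STAT element GAS (TTCNNNGAA) or the TATA box (TATAAA), and no matches overlapped.
Il6: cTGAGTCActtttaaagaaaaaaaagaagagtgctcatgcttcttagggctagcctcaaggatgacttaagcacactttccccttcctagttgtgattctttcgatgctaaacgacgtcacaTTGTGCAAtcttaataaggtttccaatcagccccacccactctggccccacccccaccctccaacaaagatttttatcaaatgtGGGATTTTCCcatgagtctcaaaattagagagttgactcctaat
Il12b: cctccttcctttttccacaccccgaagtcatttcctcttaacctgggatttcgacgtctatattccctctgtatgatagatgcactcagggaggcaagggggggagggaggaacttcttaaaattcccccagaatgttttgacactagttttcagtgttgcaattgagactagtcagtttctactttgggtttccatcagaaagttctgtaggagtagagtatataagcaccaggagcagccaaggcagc
Ebi3: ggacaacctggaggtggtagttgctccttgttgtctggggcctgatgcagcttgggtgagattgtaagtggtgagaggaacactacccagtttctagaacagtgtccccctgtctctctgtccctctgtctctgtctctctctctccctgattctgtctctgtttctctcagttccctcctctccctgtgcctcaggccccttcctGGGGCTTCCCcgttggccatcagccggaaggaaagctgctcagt
Lif: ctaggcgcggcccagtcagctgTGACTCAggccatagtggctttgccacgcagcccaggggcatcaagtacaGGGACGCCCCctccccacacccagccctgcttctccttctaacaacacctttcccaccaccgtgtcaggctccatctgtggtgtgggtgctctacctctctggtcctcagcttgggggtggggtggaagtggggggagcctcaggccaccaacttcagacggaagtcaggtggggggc

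A kB match stood in the windows of Il6, Ebi3 and Lif, 3 of the 8 windows, against 7.25% of all 32851 windows of this length. In Il6 it read GGGATTTTCC and in Ebi3 GGGGCTTCCC, and both lay from -44 to -35 relative to the start site. In Lif the kB match, GGGACGCCCC, lay from -178 to -169. An AP-1 match stood in Il6 (-249 to -243) and Lif (-228 to -222) and in 6.75% of all windows, and a C/EBP match stood in Il6 alone (-128 to -121) and in 9.56% of all windows. No member window held the GAS or TATA letters, which stood in 7.02% and 12.4% of all windows. These matches describe the letters of the windows only.

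In the genome the members are scattered, apart from the neighbours Osm and Lif. By GENCODE M21 positions in GRCm38, looked up by Ensembl ID, Osm (chr11:4236420-4241026) and Lif (chr11:4257557-4272514) lie on the same strand with 16530 bases and no annotated gene wholly between them. Il12b (chr11:44400063-44414033) shares their chromosome, and Il12a (chr3:68690644-68698547) and Il6ra (chr3:89864059-89913196, - strand) share another. Il6 lies at chr5:30013114-30019981, Il27 at chr7:126589010-126594941 on the - strand, Il23a at chr10:128296139-128298752 on the - strand, Il6st at chr13:112464070-112510086 and Ebi3 at chr17:55952640-55957022. All 10 are protein coding. Ebi3 overlaps the antisense gene Gm16712 by 2252 bases, Il6ra overlaps Gm42809 by 281 bases and Il27 overlaps Apobr by 103 bases, each on the opposite strand. The library kit and counting are not stated to keep the strand, so reads in these overlaps cannot be assigned with certainty.

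C498 alone raised 3 of the 9 tested members and lowered none. In C498 vs NC, 5.64% of all tested genes rose and 1.36% fell by the same thresholds (687 and 166 genes, or 565 and 269 after centring), and the median log2 change was 0.69 over the members and 0.01 over all genes. Lif rose 20.2-fold (log2 change 2.92 ± 0.25, adjusted p = 7.4e-04), Osm 8.25-fold (2.80 ± 0.16, adjusted p = 1.3e-04) and Il6 6.13-fold (2.02 ± 0.15, adjusted p = 4.3e-04). The rise of Il6 left it at 8.74 ± 0.63 TPM (SD, n = 2), far under its level with LPS. The fibroblast markers were higher in the same comparison, at 633 to 750 TPM against 150 to 192 TPM, and their part in these 3 rises was not tested. At an unadjusted p under 0.05, 5 members were higher and 2 lower, beside 3898 of all 12189 genes in either direction. The lower were Il12a (log2 change -0.47 ± 0.13, adjusted p = 0.056) and Ebi3 (-0.71 ± 0.13, adjusted p = 0.013), both under the 2-fold threshold. Il12b was just under that threshold at 0.97 ± 0.21 (adjusted p = 0.023). The remaining log2 changes were -0.34 for Il27 (adjusted p = 0.17), -0.26 for Il6ra (0.55) and 0.69 for Il6st (0.12). Without NC replicate 1, both Il12b (1.08, adjusted p = 0.026) and Il6st (1.10, adjusted p = 0.011) passed, for 5 calls in place of 3. Il23a had a log2 change of 0.06 with an adjusted p of 0.97 in the fit without a filter.

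With LPS present, C498 split the family. In C498+LPS vs LPS, 3 of the 9 tested members fell (Il12a, Il27 and Ebi3) and 2 rose (Lif and Osm), beside 2.18% of all genes falling and 5.39% rising. Il12a was 3.41-fold lower between the group means, a log2 change of -1.75 ± 0.13 (adjusted p = 6.3e-04). Il27 was 2.48-fold lower (-1.30 ± 0.15, adjusted p = 0.0023) and Ebi3 2.20-fold lower (-1.11 ± 0.13, adjusted p = 0.0021), so both subunits of IL-27 fell. Lif rose 3.72-fold (1.79 ± 0.25, adjusted p = 0.0043) and Osm 2.47-fold (1.23 ± 0.16, adjusted p = 0.0030). The Lif call was lost without C498+LPS replicate 2, at an adjusted p of 0.052. Il12b was 1.91-fold lower, at a log2 change of -0.89 ± 0.21 with an adjusted p of 0.027, and missed the 2-fold threshold. The summed macrophage markers were also lower in both C498+LPS samples than in both LPS samples, by the ranges given above, and their part in the lower Il12a, Il27 and Ebi3 levels was not tested.

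Il6 did not pass in C498+LPS vs LPS. Its mean of 412 ± 16.1 TPM (SD, n = 2) was 1.27-fold under the 522 ± 14.5 TPM of LPS, both C498+LPS samples lay below both LPS samples, and the log2 change was -0.34 (95% interval -0.70 to 0.02, adjusted p = 0.19). Il6ra (-0.35, adjusted p = 0.44) and Il6st (0.82, adjusted p = 0.073) did not pass either. Il23a was 2.77-fold higher between the group means, with an adjusted p of 0.081 in the fit without a filter. The median log2 change was -0.35 over the 9 members and 0.01 over all genes.

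**Figure D2:**
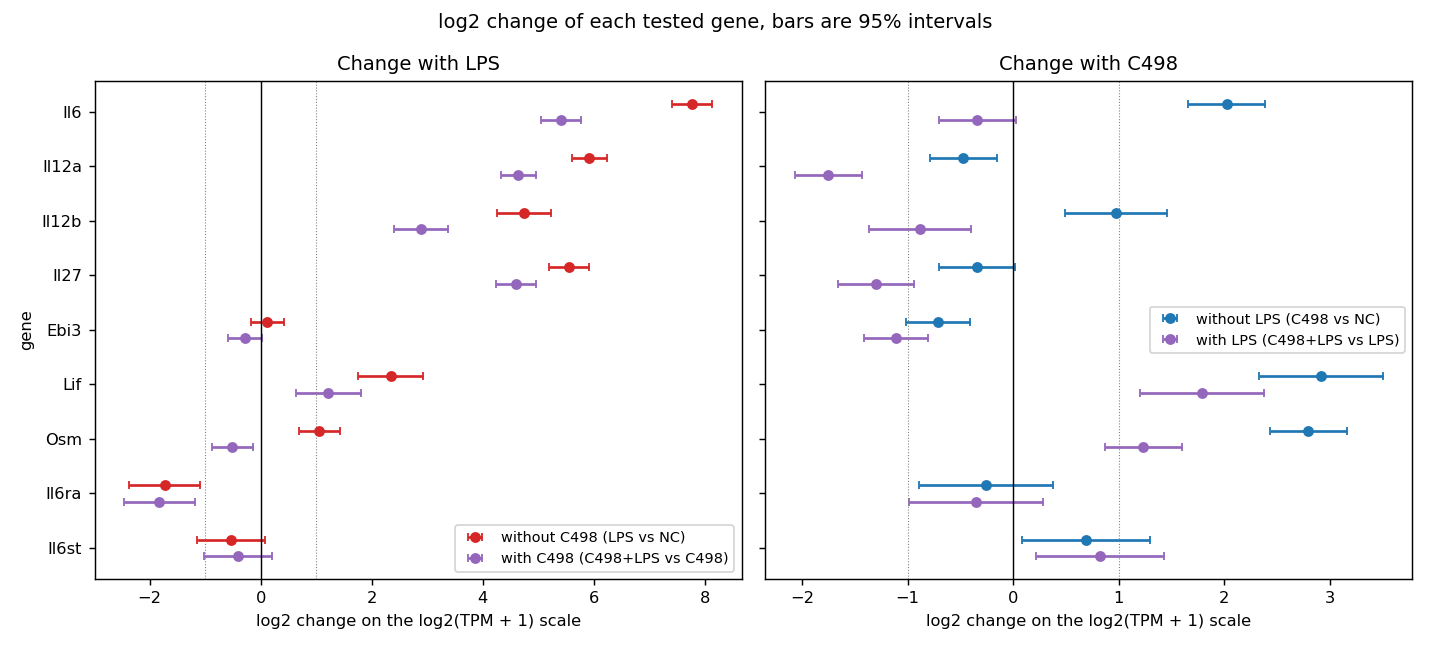
log2 change on the log2(TPM + 1) scale (x axis) of the 9 tested members (y axis), with 95% intervals as bars and dotted lines at a 2-fold change. The left panel shows the change with LPS without and with C498, the right panel the change with C498 without and with LPS. Lif and Osm lie to the right of 1 in both C498 comparisons, while Il12a, Il27 and Ebi3 lie to the left of -1 only for C498+LPS vs LPS.

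The response to LPS was present under C498 as well. In C498+LPS vs C498, 5 of the 9 tested members rose and 1 fell, with 2.52% of all genes rising and 3.13% falling (307 and 381 genes, or 434 and 196 after centring). The log2 changes were 5.41 ± 0.15 for Il6 (adjusted p = 5.7e-06), 4.64 ± 0.13 for Il12a (5.7e-06), 4.60 ± 0.15 for Il27 (9.0e-06) and 2.89 ± 0.21 for Il12b (2.9e-04). In folds of the group means these were 47.2, 48.1, 31.4 and 10.5. Lif rose by 1.22 ± 0.25 (adjusted p = 0.020) and Il6ra fell by 1.83 on the log2 scale (adjusted p = 0.0062). The Lif call was lost when any of the 4 samples of these groups was left out (adjusted p 0.081 to 0.14) and the Il6ra call without either C498 sample (adjusted p 0.060 and 0.062). Osm, which had risen with LPS in the absence of C498, was 1.44-fold lower with LPS here, at -0.51 ± 0.16 (adjusted p = 0.066). Ebi3 (-0.28, adjusted p = 0.19) and Il6st (-0.41, adjusted p = 0.32) did not pass. Il23a had a log2 change of 1.59 ± 0.21 and an adjusted p of 0.016 without a filter, and did pass there. The median log2 change was 1.22 over the members and -0.18 over all genes.

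Whether the LPS response differed with C498 was tested as the interaction of C498 and LPS, the log2 change with LPS under C498 minus that without it. It was negative and past the thresholds for 3 of the 9 tested members and positive for none. Of all tested genes 0.394% were called lower and 0.0738% higher. At an unadjusted p under 0.05 the interaction was lower for 6 members and higher for none, beside 1351 of all 12189 genes in either direction. The interaction was -2.36 ± 0.22 for Il6 (adjusted p = 0.013), -1.57 ± 0.22 for Osm (0.041) and -1.28 ± 0.19 for Il12a (0.049). For Il6 the smaller response came with a higher starting level, since C498 alone had raised the gene. For Osm the LPS change was positive without C498 and negative with it. These 3 calls rest on few samples. Il6 kept its call without either NC sample and lost it without any of the other 6 samples (adjusted p 0.054 to 0.10), and no single sample could be left out without the loss of the Il12a and Osm calls, so that 0 or 1 of the members kept a call. The interaction was -1.86 ± 0.29 for Il12b (adjusted p = 0.058), -0.95 for Il27 (0.16), -0.40 for Ebi3 (0.48), -1.13 for Lif (0.31), -0.10 for Il6ra (0.95) and 0.13 for Il6st (0.92). Il12b did pass with a pseudocount of 0.1 TPM (adjusted p = 0.036) and after centring (adjusted p = 0.039), and also with the replicate number added to the model. For Il23a it was 0.79 with an adjusted p of 0.55 in the fit without a filter. The comparisons share samples, so their values are set side by side and are not independent of each other.

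Ratios of subunits within a sample do not depend on the scaling of the library, and TPM is per transcript length, so levels of 2 genes can be set against each other. With 2 samples against 2, the smallest p an exact two-sided permutation test can give is 0.333, so none of these ratios can pass. Il12b was 0.29 ± 0.10 of Il12a in NC (SD, n = 2), 0.24 ± 0.04 in LPS, 1.92 ± 0.29 in C498 and 0.42 ± 0.03 in C498+LPS. The p40 transcript therefore exceeded the p35 transcript in the C498 group alone, where both were under 3 TPM. Il23a made up 0.41% and 0.59% of the sum of Il12a and Il23a in the LPS samples and 3.21% and 6.04% in the C498+LPS samples. Il27 was 0.071 ± 0.002 of Ebi3 in NC and 0.086 ± 0.009 in C498, and 3.77 ± 0.35 and 3.35 ± 0.04 in LPS and C498+LPS. The 2 groups given LPS were the ones in which Il27 exceeded Ebi3, at 3.52 and 4.02 times its level in the LPS samples and 3.37 and 3.32 times in the C498+LPS samples.

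Il6st was 1.38 ± 0.01 times Il6ra in NC, 4.06 ± 0.18 in LPS, 2.80 ± 0.01 in C498 and 11.1 ± 1.96 in C498+LPS. The 2 NC samples, which were far apart for each receptor chain, were alike in this ratio, at 1.39 and 1.38. The 8 ligand genes summed to 73.6 ± 5.75 TPM in NC, 1063 ± 29.0 TPM in LPS, 100.4 ± 6.53 TPM in C498 and 667 ± 20.5 TPM in C498+LPS. Il6 made up 1.97% ± 0.87 of that sum in NC, 49.1% ± 0.02 in LPS, 8.74% ± 1.20 in C498 and 61.8% ± 0.51 in C498+LPS. The sum was lower in C498+LPS than in LPS, and the share of Il6 in it was higher in both samples.

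**Figure D3:**
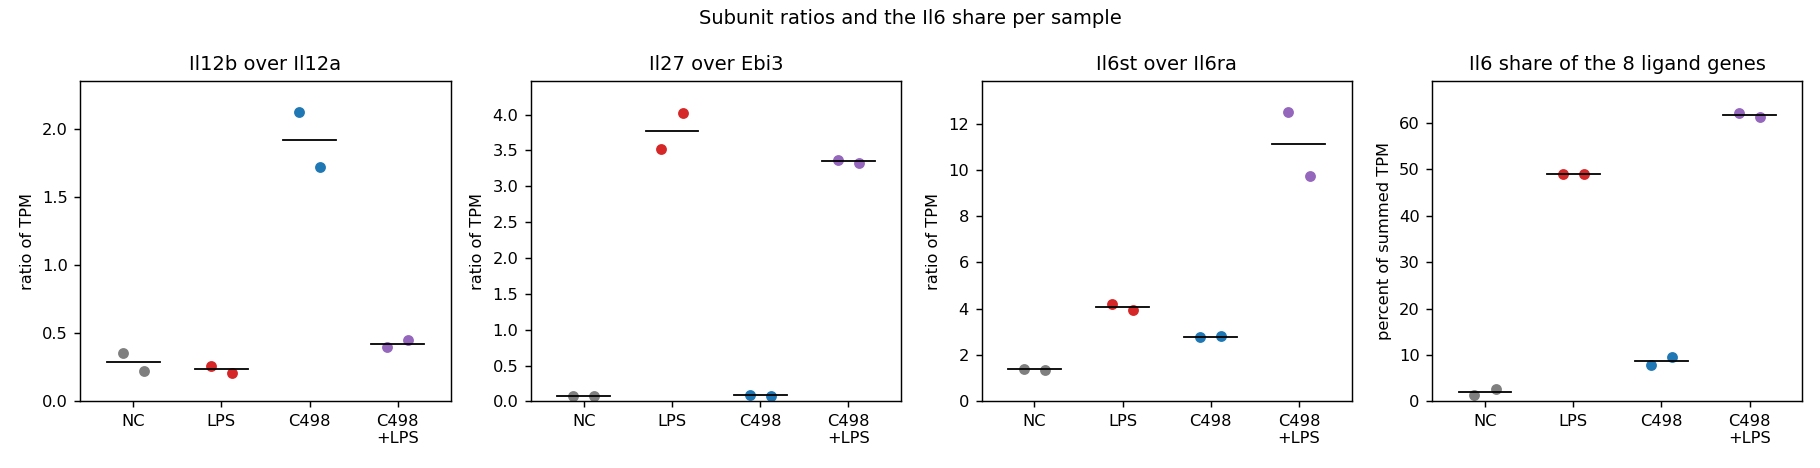
Ratios of TPM (first 3 panels) and the percent of the summed TPM of the 8 ligand genes that is Il6 (last panel), per sample, by treatment. Points are samples and lines are group means. Il12b over Il12a is highest in C498, Il27 over Ebi3 is high in both LPS groups, and Il6st over Il6ra is highest in C498+LPS, at 11.1 on average.

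Other ligands and subunits listed beside the family were mostly low. Of 7 such genes 3 passed the filter on low values. Csf3, the granulocyte growth factor G-CSF, rose in LPS vs NC (log2 change 3.38, adjusted p = 3.0e-05), in C498 vs NC (1.85, adjusted p = 0.0010) and in C498+LPS vs C498 (1.58, adjusted p = 0.0019), and its LPS and C498+LPS samples overlapped at 32.3 to 36.9 TPM. Clcf1, a ligand of the CNTF receptor, stood at 2.98 and 4.06 TPM in NC and rose with C498 alone (1.47, adjusted p = 0.0056) and in C498+LPS vs LPS (1.36, adjusted p = 0.0063). The Clcf1 call was lost without either C498 sample in the first comparison, and without LPS replicate 1 or without C498+LPS replicate 2 in the second. Il11, another gp130 ligand, failed the filter and is named after its values were seen. It stood at 0 to 0.04 TPM in the 4 samples without C498, 0.64 and 1.57 TPM in C498, and 1.75 and 2.97 TPM in C498+LPS. Cntf and Ctf1 stayed under 2 TPM and Il31 was listed at 0 in all samples.

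Of 9 further receptor genes of the family 5 passed the filter, and the receptors of IL-12 and IL-23 were not among them. Il12rb1, Il12rb2 and Il23r stood at no more than 1.19, 0.75 and 0.27 TPM. Osmr, the oncostatin M receptor, stood at 1.21 and 1.37 TPM in NC and 1.91 and 2.06 TPM in LPS, and at 9.08 to 11.3 TPM in the 4 samples with C498. It rose in C498 vs NC (2.24, adjusted p = 5.8e-04) and with C498 on top of LPS (1.94, adjusted p = 0.0013). Il31ra, the IL-31 receptor chain that pairs with Osmr, is named after its values were seen, as the listed receptor with the highest mean over the 8 samples. Il11ra1, the IL-11 receptor chain and the next by that mean, stood at 162 to 245 TPM over all samples. Il31ra stood at 512 and 430 TPM in NC, 369 and 387 TPM in LPS, 209 and 141 TPM in C498, and 327 and 106 TPM in C498+LPS, and its log2 change in C498 vs NC was -1.45 (adjusted p = 0.078). No other receptor of the list passed in any comparison. LPS vs NC called 0 of the 5, which is near the background of 5.55% of all genes rising and 6.68% falling. At an unadjusted p under 0.05 by limma it had 0 of the 5, beside 5017 of all 12189 genes. The median log2 change was 0.00 against -0.17 over all genes.

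The Lif, Osm, resting Il6, Clcf1, Il11 and Osmr levels were higher with C498, and so were the fibroblast and mesothelial markers. In C498 vs NC 5.64% of all tested genes rose. Col1a1 stood at 53.9 to 77.5 TPM in the samples without C498 and 220 to 326 TPM in those with it, Dcn at 21.6 to 29.4 TPM and 84.3 to 154 TPM, and Wt1 at 2.83 to 3.75 TPM and 9.28 to 13.8 TPM. Lum, another fibroblast marker, was at most 0.28 TPM. C498+LPS replicate 2 had the highest sum of either list, as of the dendritic cell, B cell, T cell, mast cell and endothelial lists, and also the highest Lif, Il23a, Il11, Clcf1 and Osmr, while Osm was highest in C498 replicate 1. The part of these other cells in the levels of the family's genes was not tested.

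**Figure D4:**
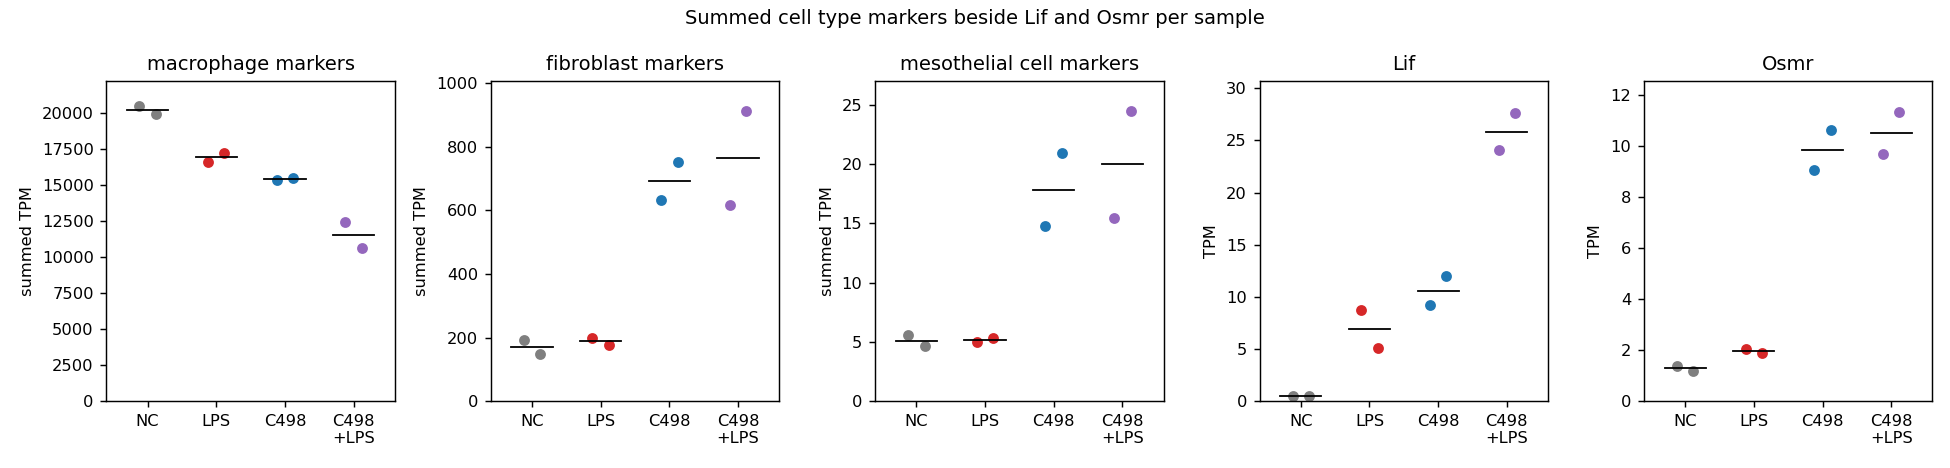
Summed TPM of the macrophage, fibroblast and mesothelial cell marker lists beside the TPM of Lif and Osmr, per sample, by treatment (y axes linear, starting at 0). Points are samples and lines are group means. The fibroblast sum lies at 150 to 200 TPM in the 4 samples without C498 and at 618 to 911 TPM in the 4 with it, and Osmr is split the same way.

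Downstream of the receptors, 2 of 9 kinase and STAT genes rose in LPS vs NC, beside 5.55% of all genes, and 0 were called with C498 alone, where 5.64% of all genes rose and 1.36% fell, so a count of 0 among 9 genes is near that background. Jak2, a kinase that many cytokine receptors use, rose in LPS vs NC (2.33, adjusted p = 5.0e-04) and in C498+LPS vs C498 (1.52, adjusted p = 0.0064), and Stat5a rose in the same comparisons (1.88, adjusted p = 8.1e-04, and 2.23, adjusted p = 9.1e-04). The Jak2 call in C498+LPS vs C498 was lost without either C498 sample or without C498+LPS replicate 1. For Jak2 the C498+LPS samples, at 115 and 96.2 TPM, lay below the LPS samples, at 155 and 131 TPM, with a log2 change of -0.43 (adjusted p = 0.25). Jak1 and Stat3 were not called in any comparison. With LPS, the log2 change was 0.18 for Jak1 and 0.32 for Stat3 without C498, and -0.13 and -0.04 with it. With C498, it was 0.23 for Jak1 and 0.48 for Stat3 without LPS, and -0.08 and 0.12 with it, with adjusted p of 0.10 to 0.91 over both genes. The directions for Jak1 with LPS under C498 and with C498 under LPS, and for Stat3 with LPS under C498, turned with the scaling of the samples. In C498 vs NC limma called 0 of the 9, with 2 higher and 0 lower at an unadjusted p under 0.05. In C498+LPS vs LPS it called 0, beside 5.39% of all genes rising and 2.18% falling, with 1 higher and 2 lower at that p. Of all 12189 genes 3898 and 3797 had such a p in the 2 comparisons, in either direction. The median log2 change of the list was 0.32 in LPS vs NC, 0.23 in C498 vs NC and -0.23 in C498+LPS vs LPS.

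Of 10 genes that STAT3 is known to induce or that feed back on it, 4 rose with LPS and 6 did not pass (Socs3, Socs1, Pim1 and Junb, beside 5.55% of all genes), and with C498 alone 4 rose and 6 did not pass (the 4 named, beside 5.64% of all genes). The 2 comparisons share the NC samples, and the median log2 changes of the list were 0.45 and 0.46. Socs3, the feedback inhibitor of gp130 signalling, stood at 65.5 and 61.8 TPM in NC, 283 and 254 TPM in LPS, 168 and 156 TPM in C498, and 352 and 303 TPM in C498+LPS. Its log2 change was 2.06 with LPS (adjusted p = 3.0e-05), 1.34 with C498 (adjusted p = 5.3e-04), 1.01 in C498+LPS vs C498 (adjusted p = 0.0016) and 0.28 in C498+LPS vs LPS (adjusted p = 0.12). Socs1 (1.05, adjusted p = 0.013), Pim1 (1.57, adjusted p = 3.1e-04) and Junb (1.67, adjusted p = 9.7e-05) completed the calls of C498 vs NC. The Socs1 call there was lost without NC replicate 1 or without C498 replicate 1, the Junb call with LPS without NC replicate 1, and the Socs3 call in C498+LPS vs C498 without C498 replicate 2 or without C498+LPS replicate 1. In C498+LPS vs LPS, 1 of the 10 rose, Il10 (1.16, adjusted p = 0.032), which encodes an anti-inflammatory cytokine, and 1 fell, Cebpd (-1.11, adjusted p = 0.011), beside 5.39% and 2.18% of all genes. The Il10 call was lost on leaving out 5 of the 8 samples in turn (adjusted p 0.050 to 0.15) and under 5 other settings, and the Cebpd call without any of the 4 samples compared (adjusted p 0.064 to 0.093). Il10 stood at 2.66 and 3.89 TPM in C498+LPS and at no more than 1.16 TPM elsewhere. Its mean of 1.38 TPM over the 8 samples passed the filter only through C498+LPS, as its other group means were 0.605 to 0.91 TPM. The group in which it was high therefore decided that it was tested, and its call is no independent support.

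Of 10 regulators of Il6 and Il12b transcription, 5 rose in LPS vs NC (Nfkb1, Rel, Rela, Nfkbiz and Irf1), 5 rose in C498 vs NC (Rel, Nfkbiz, Irf1, Atf3 and Nfil3) and 4 in C498+LPS vs C498 (Nfkb1, Rel, Nfkbiz and Irf8), with median log2 changes of 0.83, 0.92 and 0.58, beside 5.55%, 5.64% and 2.52% of all genes rising. The Rel call in C498+LPS vs C498 was lost on leaving out 6 of the 8 samples in turn, all but the NC samples (adjusted p 0.078 to 0.22), and in C498 vs NC without NC replicate 2 or without either C498 sample. Nfkbiz, whose product IκBζ is needed for full Il6 and Il12b induction, stood at 9.33 and 6.09 TPM in NC, 118 and 98.6 TPM in LPS, 26.5 and 24.2 TPM in C498, and 134 and 114 TPM in C498+LPS. It rose with LPS (3.67, adjusted p = 3.3e-05), with C498 (1.62, adjusted p = 0.0030) and with LPS under C498 (2.24, adjusted p = 7.2e-04). The call with C498 was lost under 1 of 9 other settings (adjusted p = 0.053). In C498+LPS vs LPS the regulators that rose were Irf8 (1.43, adjusted p = 0.0012), a factor for Il12b transcription in macrophages, and Nfil3 (1.86, adjusted p = 6.0e-04), a repressor of Il12b. Nfkbiz had 0.19 there (adjusted p = 0.58).

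Of 6 regulators of Il6 mRNA decay, 2 rose in LPS vs NC (Zc3h12a and Arid5a), 2 in C498 vs NC (Zfp36 and Zfp36l2) and 3 in C498+LPS vs LPS (Zfp36, Zfp36l1 and Zfp36l2), beside 5.55%, 5.64% and 5.39% of all genes. The Zfp36l2 call was lost in C498 vs NC without NC replicate 2 or without either C498 sample, and in C498+LPS vs LPS without LPS replicate 2 or without C498+LPS replicate 2. Zc3h12a, which encodes the RNase Regnase-1 that degrades Il6 and Il12b mRNA, stood at 24.4 and 27.3 TPM in NC, 170 and 168 TPM in LPS, 36.8 and 36.5 TPM in C498, and 176 and 147 TPM in C498+LPS. Its log2 change was 2.66 with LPS (adjusted p = 1.3e-05), 2.11 with LPS under C498 (adjusted p = 9.4e-05), 0.49 with C498 alone (adjusted p = 0.031) and -0.07 in C498+LPS vs LPS (adjusted p = 0.75), a direction that turned under quantile normalization. Zfp36, which encodes tristetraprolin, a protein that binds AU-rich elements and destabilises cytokine mRNAs, stood at 31.1 and 35.3 TPM in NC, 66.9 and 61.0 TPM in LPS, 178 and 162 TPM in C498, and 234 and 239 TPM in C498+LPS. It rose with C498 (2.32, adjusted p = 4.1e-05) and in C498+LPS vs LPS (1.87, adjusted p = 2.8e-04). The list's median log2 change was 0.91 in C498 vs NC and reached 0.83 in C498+LPS vs LPS.

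The NFκB target genes Tnf, Il1b, Nfkbia, Tnfaip3 and Cxcl2 served to check the stimulus. All 5 rose in LPS vs NC, from 2.07 for Nfkbia to 6.47 for Il1b on the log2 scale, and all 5 rose in C498+LPS vs C498. In C498 vs NC 4 of the 5 rose, Cxcl2 by 4.28 (adjusted p = 3.7e-05), Tnfaip3 by 1.83 (adjusted p = 0.0012), Tnf by 1.13 (adjusted p = 7.9e-04) and Il1b by 1.01 (adjusted p = 0.0045), the last call being lost without NC replicate 2 or without C498 replicate 1. In C498+LPS vs LPS limma called 0 of the 5, near the background of 5.39% of all genes rising and 2.18% falling. At an unadjusted p under 0.05, 1 was higher and 2 lower, beside 3797 of all 12189 genes in either direction. In the other 3 comparisons 5.55%, 2.52% and 5.64% of all genes rose, in the order given here.

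The genes whose pattern over the 8 samples was most like that of a member were named by Pearson's r on log2(TPM + 1), as a description. For Il6 these were Edn1, Tnf, Cxcl10, Zc3h12a and Nos2, with r of 0.995 to 0.998. For Il12b they were Nfkb2, Rsad2, Traf5, Tnf and Rcl1, with r of 0.995 to 0.997. For Il23a, which was low throughout, they were Plscr1, Col27a1, Hat1, Gtpbp4 and Cxcl9, with r of 0.957 to 0.973. The first 2 lists share Tnf, which stood at 49.9 and 50.9 TPM in NC, 2157 and 2190 TPM in LPS, 107 and 116 TPM in C498, and 1588 and 1347 TPM in C498+LPS.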

How the data were processed

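RNA was sequenced from 8 samples of mouse peritoneal macrophages. Per the study's methods, fastp served for read trimming, HISAT2 for alignment, and StringTie and RSEM for transcript assembly and gene quantification. Versions, genome build and annotation are not given in the sources used here. The table deposited by the authors holds TPM per gene and sample, with 2 decimals. All columns add up to an equal total, and the depth is therefore unknown and no counting interval can be given. No comparison columns of the authors were used.

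The 10 genes and the lists beside them were chosen with earlier results of these data known. Genes with a mean of at least 1 TPM (12189 of 55801) were tested on log2(TPM + 1) with limma 3.58.1 in R 4.3.3, with 1 mean per group over the 4 groups, a variance trend and Benjamini-Hochberg adjustment within each comparison. A gene was called at an adjusted p of at most 0.05 and a change of at least 2-fold on that scale, which understates the change of low genes. The study tested counts, which TPM does not allow. The script was tested on simulated data. Named are all 10 genes and, of each list and comparison, at most 4 called genes with the largest change, plus Jak1, Jak2, Stat3, Socs3, Nfkbiz and Zc3h12a. Alternatives changed the pseudocount, the filter, the scaling, the samples in the fit, the variance trend, the fold threshold and a replicate block, and left out each sample in turn. Of the tested identifiers 97.4% were in GENCODE M21. Ratios were compared by exact permutation. The result of 1 listed gene is not reported here.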

Additional observations from a re-analysis of the deposited data

Results flagged for a closer look

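The change with LPS differed between macrophages with and without C498, by the interaction in limma, for 3 members of the family. The difference of log2 changes was -2.36 for Il6 (adjusted p = 0.013), -1.28 for Il12a (adjusted p = 0.049) and -1.57 for Osm (adjusted p = 0.041). Among the listed pathway genes it was -1.81 for Csf3 (adjusted p = 0.039), -1.05 for Socs3 (0.044), -1.07 for Pim1 (0.048), -1.70 for Tnf (0.0093), -1.36 for Il1b (0.041) and -3.76 for Cxcl2 (0.0031). Leaving out 1 sample at a time, the call was lost for Il6 in 6 of 8 fits, for Il12a, Osm and Socs3 in 8 of 8, for Csf3, Pim1 and Il1b in 7 of 8, and for Tnf in 2 of 8, while the call of Cxcl2 held in all 8. Under the 8 other settings the call was lost for Csf3, Pim1 and Il1b in 2, for Socs3 in 3 and for Tnf in 1. Of all 12189 tested genes 57 were called in this comparison, 48 lower and 9 higher. In each of these genes but Il12a the level in C498 alone was above that in NC in both samples, and the NC and C498 levels are part of the interaction.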

How the results depend on the processing

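Over the 9 tested genes of the family, no call of the 4 comparisons between groups turned in direction. Under the settings other than leaving out a sample, the number of called members stayed at 7 in LPS vs NC (6 with only the groups compared), 6 in C498+LPS vs C498 (with no filter Lif lost its call, at an adjusted p of 0.058, and Il23a, tested only there, gained one), 5 in C498+LPS vs LPS (6 with no fold threshold) and 3 in C498 vs NC (4 with a pseudocount of 0.1 TPM and 5 with no fold threshold). For the interaction the 3 calls became 1 with no filter on low values, 1 with no variance trend and 2 after centring or quantile normalization, and they were not always the same genes. Il6 kept its call in all of these settings, Il12a lost it in 5 (those 4 and the pseudocount of 0.1 TPM) and Osm in 3 (no filter, no variance trend and centring), and Il12b gained one with that pseudocount and after centring. The cause was not tested. The interaction could not be fitted with only the groups compared, since it uses all 4. Leaving out 1 sample at a time, the number was 6 to 7, 4 to 6, 4 to 5 and 3 to 5 in the comparisons in this order and 0 to 1 for the interaction. A lone sample is then assumed to vary like the other groups.

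With the replicate number as a replicate block, 4 members were called in the interaction, the added one being Il12b, and no other member's call changed. Deviations of same-numbered samples correlated at 0.04 to 0.17 over genes, the labels name no shared batch, and the samples share only a number.

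Values that turned in direction were all under the thresholds. Leaving out samples moved Il6ra in C498 vs NC over -0.64 to 0.13, and in the interaction Il6ra over -0.48 to 0.29 and Il6st over -0.28 to 0.53. Jak1 ranged over -0.15 to 0.50 in LPS vs NC, -0.27 to 0.016 in C498+LPS vs C498, -0.22 to 0.066 in C498+LPS vs LPS, -0.097 to 0.55 in C498 vs NC and -0.63 to 0.021 in the interaction, Stat3 over -0.11 to 0.029 in C498+LPS vs C498, and Zc3h12a over -0.20 to 0.060 in C498+LPS vs LPS. Centring on the median gene gave 0.088 for Jak1 and 0.18 for Stat3 in C498+LPS vs C498. Quantile normalization gave 0.018 for Stat3 in that comparison, and 0.029 for Jak1 and 0.066 for Zc3h12a in C498+LPS vs LPS. Centring moved the median log2 change of all genes from -0.17 to -5e-04 in LPS vs NC, from -0.18 to 0.04 in C498+LPS vs C498 and from 0.01 to -0.11 in C498 vs NC.

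Counts over all genes moved by more than 1.5 times in these settings. With no fold threshold the calls went from 1491 to 3609 in LPS vs NC, from 688 to 1980 in C498+LPS vs C498, from 923 to 2045 in C498+LPS vs LPS and from 853 to 1886 in C498 vs NC. A minimum mean of 5 TPM gave 594 for C498+LPS vs LPS and 566 for C498 vs NC, and only the groups compared gave 379 for C498 vs NC. Leaving out samples gave 366 to 720, 470 to 956 and 345 to 1381 in the last 3 comparisons. The 57 interaction calls became 18 with no filter, 12 with no variance trend and 9 to 92 leaving out samples. Of the counts per pathway list, 277 of 308 under other settings and 235 of 280 leaving out a sample stayed within 1.5 times. Among named pathway genes, 1 of the 9 other settings lost the call of Rel and of Junb in LPS vs NC. The same held for Socs3 in C498+LPS vs C498 and for Clcf1 and Nfkbiz in C498 vs NC. In C498+LPS vs C498, 2 of them lost the Rel call. In C498 vs NC, 2 of them lost the calls of Socs1, Rel, Zfp36l2 and Il1b. The depth is unknown, so what it limits cannot be given, and a gene listed at 0 may be a failed estimate.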
